A study of Mus musculus with 4 samples.

Results

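The genes described here are 10 receptors of the C-type lectin family that macrophages carry: Clec4a1, Clec4a2, Clec4a3, Clec4d, Clec4e, Clec4n, Clec7a, Clec12a, Clec5a and Clec10a. They were chosen by symbol as known receptors of myeloid cells. All 10 were among the 17194 symbols of the count table, and all 10 were among the 15651 genes left by the low-count filter. Polyadenylated RNA was taken from primary bone-marrow-derived macrophages of the mouse after 2 days with RANKL, the cytokine that directs such precursors to become osteoclasts. All 4 libraries shared that treatment. In 2 of them the cells had received a control siRNA (siControl), and in 2 an siRNA against Hells (siHells), a chromatin remodelling enzyme. The comparison asks how transcripts differ with Hells knockdown at this stage. The labels give no strain, sex or age of the animals and do not say whether the libraries of a group came from separate cultures or animals. P-values therefore measure only the spread between these libraries, which may be technical.

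C-type lectin receptors bind sugars, lipids and crystals of microbes or damaged cells through an extracellular lectin-like domain. Clec4d, Clec4e and Clec4n signal through Fcer1g, a short membrane adaptor whose ITAM motif recruits the kinase Syk, and Clec5a signals through the related adaptors Tyrobp and Hcst. Clec7a carries a single-tyrosine version of that motif in its own tail. Clec4a2 and Clec12a carry the inhibitory ITIM motif instead, which recruits phosphatases. Osteoclast formation also depends on Fcer1g, Tyrobp and Syk, so these receptors share adaptors with the osteoclast programme.

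Total counts per library ran from 48873635 to 55642819. Hells itself stood at 29.3 and 29.995 CPM (counts relative to library size, scaled by TMM) in siControl and at 15.2 and 14.6 CPM in siHells, 1.99-fold lower (edgeR, adjusted p = 5.96e-09). Of 9 macrophage markers 8 rose and 1 fell, and the defining Csf1r and Adgre1 were at 805 CPM or more in every library. All 8 osteoclast markers fell, and their summed CPM went from 8249 to 8315 in siControl to 1201 to 1240 in siHells. Of 7 tested dendritic cell markers 2 rose, Flt3 5.66-fold from a low 0.420 CPM and Zbtb46 1.41-fold, and 3 fell. The sum of the 7 went from 120 to 126 CPM in siControl to 15.6 to 17.8 CPM in siHells. Most of that sum in siControl came from the 3 that fell. These were H2-Aa (58.0 to 2.98 CPM), H2-Ab1 (45.5 to 4.11 CPM) and Itgax (13.9 to 0.870 CPM). Xcr1, Ccr7 and Cd209a were not analysed here. Of 7 stromal markers 6 rose and 1 fell (923 to 943 CPM against 1703 to 1735), and of 7 monocyte markers 5 rose and 1 fell (559.6 to 573 CPM against 1178 to 1187). Of 10 tested neutrophil markers 2 rose and 5 fell (536 to 543 CPM against 448 to 468), with the calls of S100a9, Mpo and Csf3r lost when siHells replicate 2 or siControl replicate 2 was left out (those of Mpo and Csf3r also without siControl replicate 1), and the 7 lymphoid and NK markers were not analysed here. These marker levels moved between the same groups as the receptors, and their part in the receptor changes was not tested. In bulk RNA, fewer cells of a type and less RNA per cell cannot be told apart.

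Of the 10 receptors, 5 rose and 3 fell in the siHells libraries (edgeR quasi-likelihood test, p-values adjusted over all genes tested by Benjamini-Hochberg, threshold 0.05). Over all genes 58.5% were called, 29.0% as higher and 29.5% as lower, so the 8 calls among the 10 receptors are to be read against a background in which most genes were called. The receptors went in both directions. Clec10a and Clec4a1 rose more than 3-fold, Clec4d, Clec4a3 and Clec4n rose by smaller factors, Clec7a and Clec12a fell 3.50-fold and 2.70-fold, Clec4e fell 1.68-fold, and Clec4a2 and Clec5a did not pass the test. Changes past the threshold of at least 2-fold were found for 2 receptors that rose and 2 that fell, where 12.3% of all genes had such a change (6.75% higher and 5.52% lower). The median log2 fold change of the 10 was 0.24, against -0.00 over all genes tested, and it lies between groups of receptors with opposite changes.

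**Figure D1:**
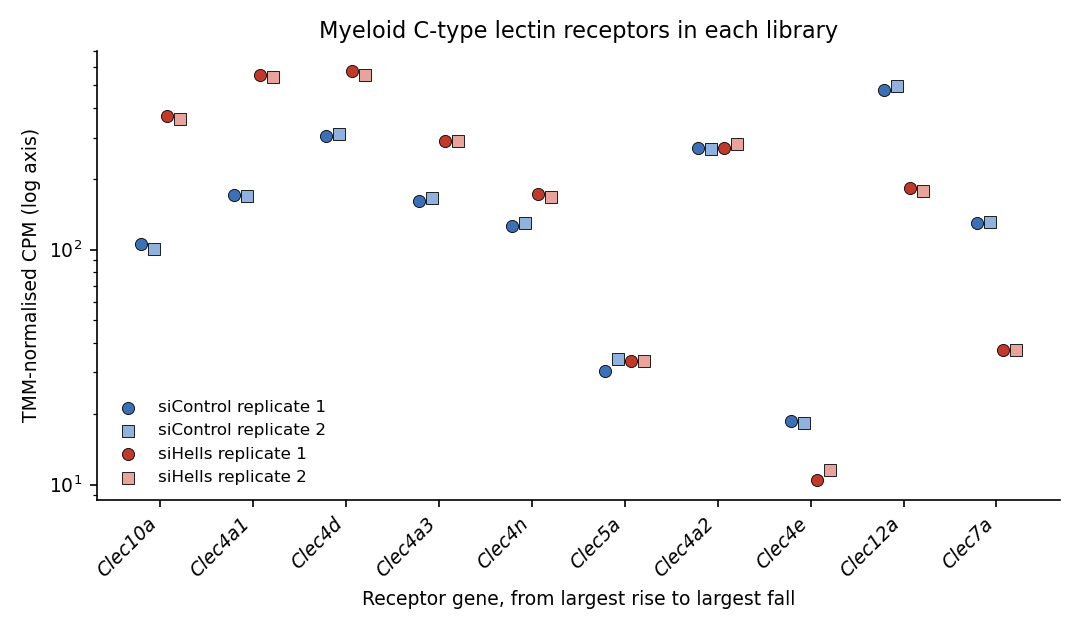
Normalised expression of each receptor in each library, in TMM-normalised CPM on a log axis. Circles are replicate 1 and squares replicate 2 of siControl (blue) and siHells (red), and the genes run from the largest rise (Clec10a, 103 to 366 CPM) to the largest fall (Clec7a, 131 to 37.4 CPM).

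Of the 10 genes, 9 lie on chromosome 6 and Clec10a lies on chromosome 11. The 6 Clec4 receptors stand in a row in a single gene cluster. In GRCm38.p6 Clec4a1 spans 122921848 to 122934619, Clec4a3 122952515 to 122969878, Clec4a2 123122690 to 123143999, Clec4n 123229843 to 123247024, Clec4d 123262107 to 123275268 and Clec4e 123281789 to 123289871. All are on the plus strand except Clec4e, which faces Clec4d. Clec12a (129349783 to 129365303, plus strand) and Clec7a (129461591 to 129472785, minus strand) share a second cluster on chromosome 6. Clec5a (40574898 to 40585805, minus strand) stands apart on that chromosome, and Clec10a lies at 70166623 to 70170836 on the plus strand of chromosome 11. All 10 are annotated as protein-coding.

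Promoter sequences were found for 8 of the 10 genes in RefSeq GRCm38.p6 (not for Clec4n or Clec10a). The 4 windows below are shown because they belong to the neighbours Clec4d and Clec4e, which moved in opposite directions, to Clec7a, which fell most, and to Clec4a1, which rose most among the Clec4 genes. Each is the 250 bases before an annotated start, 5′ to 3′ on the gene's strand, with matches to the searched motifs in capitals. The windows are chr6:122921598-122921847 (plus strand), chr6:123261857-123262106 (plus), chr6:123289872-123290121 (minus) and chr6:129472786-129473035 (minus, the outer of 2 annotated starts).
Clec4a1: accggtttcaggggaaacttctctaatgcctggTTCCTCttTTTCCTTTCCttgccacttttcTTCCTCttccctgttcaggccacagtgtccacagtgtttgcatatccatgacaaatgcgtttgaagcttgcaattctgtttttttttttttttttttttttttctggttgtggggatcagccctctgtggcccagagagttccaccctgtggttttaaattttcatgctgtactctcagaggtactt
Clec4d: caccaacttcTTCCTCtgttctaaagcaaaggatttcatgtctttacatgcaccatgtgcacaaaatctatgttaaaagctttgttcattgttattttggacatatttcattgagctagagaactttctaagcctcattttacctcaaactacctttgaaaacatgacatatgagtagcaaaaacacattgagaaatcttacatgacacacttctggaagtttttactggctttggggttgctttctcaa
Clec4e: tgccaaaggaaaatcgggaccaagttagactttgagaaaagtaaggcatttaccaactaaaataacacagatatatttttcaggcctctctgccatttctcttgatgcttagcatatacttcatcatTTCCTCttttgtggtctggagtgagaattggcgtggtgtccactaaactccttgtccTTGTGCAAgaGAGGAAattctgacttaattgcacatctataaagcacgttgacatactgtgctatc
Clec7a: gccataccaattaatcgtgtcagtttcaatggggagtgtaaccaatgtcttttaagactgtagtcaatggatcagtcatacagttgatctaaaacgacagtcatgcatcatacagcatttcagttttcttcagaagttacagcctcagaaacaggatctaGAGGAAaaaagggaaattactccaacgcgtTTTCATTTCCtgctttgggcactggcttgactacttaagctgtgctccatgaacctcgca

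Motifs were searched on both strands as fixed letters: GAGGAA, a core of sites for PU.1, the ETS factor of myeloid cells; GGAA followed by 2 bases of any kind and GAAA, a composite of ETS and IRF sites; TTGCNNAA for C/EBP factors; TGANTCA for AP-1; GGGA followed by any base and TTTCC for NF-kB; and TCATGTG, an M-box as bound by Mitf. GAGGAA was found in 7 of the 8 genes, all but Clec4a2, and in 23.3% of all 32851 promoter windows of the same length. A gene was counted if any of its windows matched, whereas the shares over all promoters are per window. Clec4a3 and Clec7a have 2 windows each, and Clec4a3 held GAGGAA in only 1 of them. That Clec4a3 window (122952394 to 122952643) runs past the outer start of the gene at 122952515, and its match, at position -50, lies inside the gene. The composite was found in Clec4a1 and Clec7a, which moved in opposite directions, and in 2.30% of all windows. The C/EBP letters were found in Clec4e and Clec12a (9.56% of all windows), and in Clec12a the match is its own reverse complement and so counts on both strands. The AP-1 letters were found in Clec12a alone of the 8 (6.75%), and no window of the 8 held the NF-kB or M-box letters (0.356% and 3.25%). No matches overlap in the windows shown. The Clec12a window lies inside a first exon that GENCODE gives for that gene, and its sequence is not shown. These matches describe the letters only.

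The galactose-type receptor Clec10a, a marker of alternatively activated macrophages that binds galactose and N-acetylgalactosamine, rose most. Its expression was 105 and 101 CPM in siControl and 370.1 and 361 CPM in siHells, from counts of 5785, 5037, 20065 and 19376. The groups are far apart, and the libraries within a group nearly coincide. The change was 3.55-fold (95% interval 3.37 to 3.74; log2 fold change 1.83, SE 0.036, adjusted p = 2.04e-15, edgeR), at rank 286 from the top of the 15651 genes tested. Reads of Clec10a may in part be shared with its close relative Mgl2, since 2.64% of the 100-base windows of its GENCODE transcripts also occur in Mgl2. Of its 50-base windows, 9.02% occur in other genes, most often in Mgl2.

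The Clec4a genes encode the receptors of the Dcir group, of which Clec4a2 carries the ITIM motif and Clec4a1 and Clec4a3 do not. Clec4a1 stood at 171 and 169 CPM in siControl and at 553 and 542 CPM in siHells. It rose 3.22-fold (95% interval 3.08 to 3.37; log2 fold change 1.69, SE 0.031, adjusted p = 9.63e-16). Clec4a3, the next gene in the row, stood at 161 and 165 CPM in siControl and at 289 and 291 CPM in siHells, a rise of 1.78-fold (1.69 to 1.87; adjusted p = 7.17e-12). In both genes each siHells library lay above each siControl library.

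Clec4a2, the inhibitory member, did not pass the test. It stood at 271 and 267 CPM in siControl and at 272 and 282 CPM in siHells, so the groups are separated only by the small gap between 271 and 272 CPM. Its log2 fold change was 0.04, with a 95% interval of -0.03 to 0.11 (adjusted p = 0.301), and so the interval leaves room for a change of up to 1.08-fold upward. The relation of the paralogs changed with this. Per kb of exon, Clec4a1 was 1.18 ± 0.003 times Clec4a2 in siControl and 3.71 ± 0.153 times Clec4a2 in siHells (SD, n = 2 each). With the length of the longest coding transcript in place of all exons, the ratios were 1.005 ± 0.003 and 3.15 ± 0.129. The excess of Clec4a1 in siControl thus depended on the length used. The transcripts of Clec4a1 and Clec4a3 share no 50-base window with any other GENCODE gene. Those of Clec4a2 share 6.69% of their 50-base windows with other genes, most often Clec4a4, and 2.14% of their 100-base windows with Clec4a4. Reads of Clec4a4 may thus in part be shared with Clec4a2, which was not tested.

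Clec4d, Clec4e and Clec4n are receptors of this cluster that pair with Fcer1g. Clec4d (MCL), which binds mycobacterial glycolipid and forms a heterodimer with Clec4e, stood at 305 and 311 CPM in siControl and at 575 and 554 CPM in siHells. It rose 1.83-fold (95% interval 1.75 to 1.92; log2 fold change 0.87, SE 0.031, adjusted p = 1.82e-12). Clec4e (Mincle), the receptor for the same glycolipid and for a ligand from dying cells, stood at 18.6 and 18.3 CPM in siControl and at 10.5 and 11.5 CPM in siHells. It fell 1.68-fold (1.48 to 1.90; log2 fold change -0.75, SE 0.083, adjusted p = 1.55e-06). So the partners, whose start sites are 27.8 kb apart, went in opposite directions, and their promoter windows are printed side by side above. Per kb of exon, Clec4d was 51.9 ± 1.45 times Clec4e in siControl and 159.7 ± 14.6 times Clec4e in siHells (SD, n = 2 each). By the length of the longest coding transcript, in place of all exons, these ratios were 31.8 ± 0.888 and 97.9 ± 8.97. Clec4n (Dectin-2), a receptor for mannans of fungi, stood at 126 and 129 CPM in siControl and at 173 and 168 CPM in siHells. Its rise of 1.33-fold (1.26 to 1.40; log2 fold change 0.41, adjusted p = 1.02e-07) was the smallest called change among the 10.

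Clec7a (Dectin-1), the receptor for beta-glucan of fungal walls, fell most. It stood at 130.2 and 132 CPM in siControl and at 37.5 and 37.2 CPM in siHells, from counts of 7155, 6591, 2035 and 1998. The fall was 3.50-fold (95% interval 3.28 to 3.73; log2 fold change -1.81, SE 0.043, adjusted p = 1.86e-14). This placed Clec7a at percentile 1.70 of the log2 fold changes of all genes tested.

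Clec12a (MICL), an ITIM-bearing receptor that binds uric acid crystals, stood at 478 and 495 CPM in siControl and at 183 and 177 CPM in siHells. The fall was 2.70-fold (95% interval 2.57 to 2.84; log2 fold change -1.43, SE 0.033, adjusted p = 1.24e-14), and the libraries of the groups do not approach each other. Its start site lies 123 kb from that of Clec7a, so both large falls come from the same cluster.

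Clec5a (MDL-1), a myeloid receptor that couples to Tyrobp and Hcst, did not pass the test. It stood at 30.6 and 34.1 CPM in siControl and at 33.7 and 33.6 CPM in siHells. It is the only one of the 10 whose groups overlapped. Non-overlapping groups were found for 78.5% of all genes tested. The log2 fold change was 0.06 with a 95% interval of -0.08 to 0.19 (adjusted p = 0.451), which allows a rise of up to 1.14-fold.

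**Figure D2:**
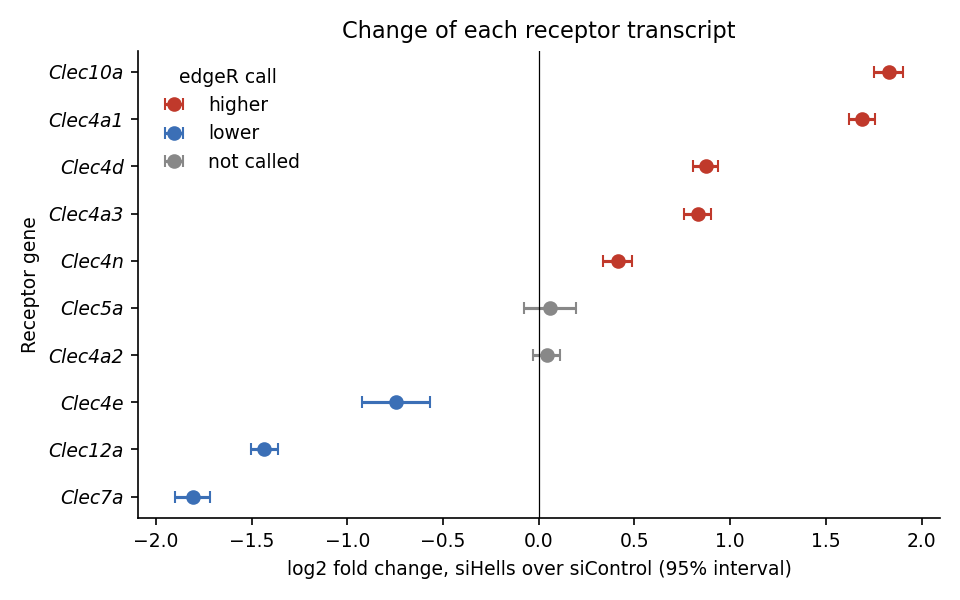
Log2 fold change of each receptor, siHells over siControl, with its 95% interval from the edgeR quasi-likelihood fit. Red genes rose, blue genes fell, and for the grey genes Clec5a and Clec4a2 the interval spans 0.

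The receptors were ordered by level per length, first as CPM per kb of the union of GENCODE exons (mean ± SD, n = 2). In siControl the order was led by Clec4d at 193 ± 2.71, followed by Clec4a3 at 123 ± 2.25 and Clec4a1 at 109 ± 0.781. Clec4a2 (92.1 ± 0.924), Clec4n (90.1 ± 1.499) and Clec12a (88.0 ± 2.27) came next, and the gaps between these 3 were about as large as their spread. Below them were Clec7a (49.6 ± 0.412), Clec10a (35.5 ± 1.12), Clec5a (8.42 ± 0.653) and Clec4e (3.72 ± 0.052).

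In siHells, Clec4d at 353 ± 9.22 and Clec4a1 at 352 ± 4.77 CPM per kb could not be separated by their spread. Clec4a3 was at 218 ± 1.12, Clec10a, which had moved up from rank 8 to rank 4, at 126 ± 2.20, Clec4n at 119.9 ± 2.54 and Clec4a2 at 94.7 ± 2.61. The last 4 were Clec12a at 32.6 ± 0.719, Clec7a at 14.2 ± 0.081, Clec5a at 8.76 ± 0.015 and Clec4e at 2.22 ± 0.146. The order depends on the length used. With the longest coding transcript instead of all exons, Clec12a in siControl was at 194 CPM per kb and at rank 2 rather than 6, and it was at 72.0 in siHells. On that scale Clec4d (427) and Clec4a1 (352) in siHells were apart, and Clec4e was at 7.33 in siControl and 4.37 in siHells, and still last.

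Summed over the 10 receptors, CPM without regard to length was 1810 ± 18.2 in siControl and 2477 ± 26.6 in siHells, 1.37-fold higher. By coding transcript length, the sum of CPM per kb was 992 ± 10.1 in siControl and 1510 ± 18.8 in siHells, 1.52-fold higher. Per kb of exon, the sum was 792 ± 6.92 in siControl and 1321 ± 15.7 in siHells (SD, n = 2 each), 1.67-fold higher. Within that sum, Clec4a1 went from 13.8% ± 0.219 to 26.6% ± 0.045, Clec10a from 4.48% ± 0.181 to 9.54% ± 0.053, Clec7a from 6.27% ± 0.003 to 1.07% ± 0.007 and Clec12a from 11.1% ± 0.190 to 2.47% ± 0.025. The ITIM-bearing receptors Clec4a2 and Clec12a together made up 22.7% ± 0.028 in siControl and 9.63% ± 0.257 in siHells. With coding transcript length these shares were 30.5% and 12.2%, and that of Clec12a alone was 19.6% and 4.77%. The joint share of Clec4d, Clec4e and Clec4n was 36.0% and 36.3% with siControl and 36.3% and 35.6% with siHells, so the groups overlapped. With coding transcript length they did not, at 34.6% and 34.8% with siControl and 38.0% and 37.4% with siHells. These are shares of RNA, and with 2 libraries a group no permutation test could pass the threshold, so none was run on them.

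**Figure D3:**
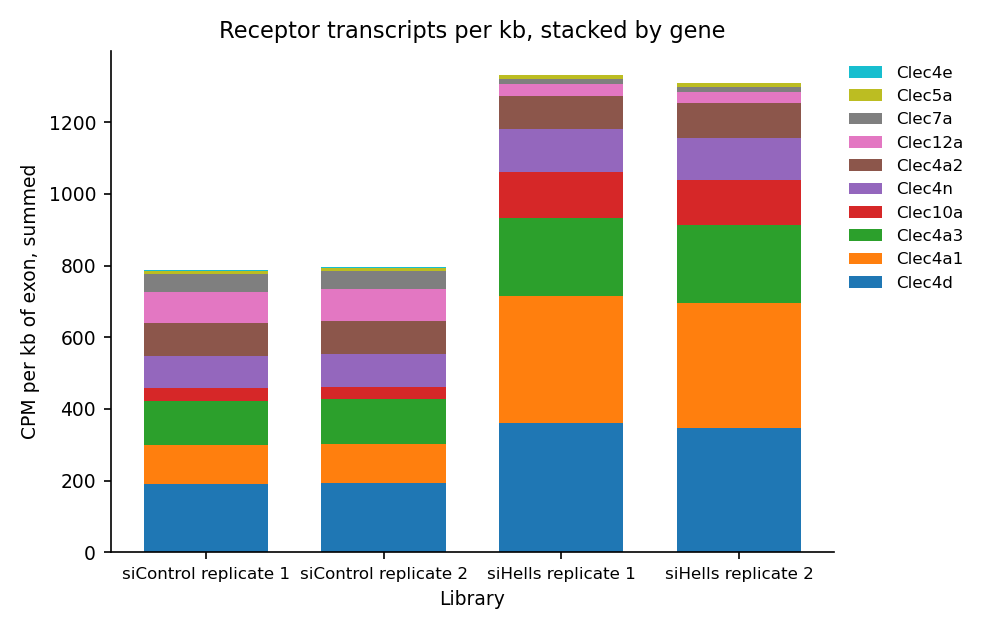
CPM per kb of exon of the 10 receptors, stacked for each library. The stacks reach about 792 in siControl and 1321 in siHells, and the Clec4a1 and Clec10a layers widen while those of Clec12a and Clec7a shrink.

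Genes close to the receptors were compared with them. Of 20 tested genes other than the receptors with a body within 100 kb of one in RefSeq, 9 were higher, 6 lower and 5 not called, with a median log2 fold change of 0.21. Of all genes tested, 29.0% were higher and 29.5% lower. At one end of the Clec4 cluster, C3ar1, the receptor for complement fragment C3a, rose 1.56-fold from 494 ± 3.39 to 771 ± 4.44 CPM, and Foxj2, a forkhead transcription factor, 1.38-fold, and Necap1, of clathrin coats, had a log2 fold change of 0.26. Inside the cluster, the Dcir-group gene Clec4a4 fell 1.77-fold, from 16.1 ± 0.473 to 9.05 ± 0.721 CPM, and Clec4b1 fell 1.95-fold, while Clec4b2 was not called (log2 fold change 0.48, adjusted p = 0.125, but 0.0165 without siHells replicate 1). From Clec4a1 to Clec4e, genes that rose and genes that fell were thus interleaved.

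Around Clec12a and Clec7a, the low-count lectin genes Olr1, a receptor for oxidised LDL, and Cd69 also fell, with log2 fold changes of -1.14 and -1.22. Those calls rested on single libraries. That of Olr1 was lost without siControl replicate 1 (adjusted p = 0.175) and without siHells replicate 2 (0.127), and that of Cd69 without siControl replicate 2 (0.101) and without siHells replicate 1 (0.106). Leaving out siHells replicate 1 put the log2 fold change of Cd69 at -0.62, and leaving out siHells replicate 2 put it at -2.24. Clec1b and Clec9a had log2 fold changes of -0.75 and -0.62 (adjusted p = 0.0531 and 0.242); Clec1b passed the threshold without siControl replicate 1 (0.0239) and without siHells replicate 1 (0.0299). Gabarapl1, an autophagy gene on the other side of Clec7a, rose 1.41-fold.

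Around Clec10a, the galactose-type receptors Mgl2 and Asgr2 rose, while Asgr1 was not analysed here. Mgl2, the closest relative of Clec10a, went from 10.02 ± 0.247 to 19.0 ± 0.007 CPM, a rise of 1.90-fold (adjusted p = 1.10e-07). Clec10a, with which it shares sequence, went from 103 to 366 CPM. Reads shared with Clec10a may therefore make up part or all of the Mgl2 rise, which was not tested. Asgr2, a subunit of the asialoglycoprotein receptor known from liver, had counts of 41, 41, 187 and 195 and rose 4.52-fold from 0.783 ± 0.052 CPM (adjusted p = 3.96e-07). The lipoxygenase Alox12 (log2 fold change 2.01), the noncoding Gm32946 (2.74) and 0610010K14Rik (0.64) also rose, Rnasek fell (-0.23), and Slc16a13 was at 0.16 (adjusted p = 0.179). The Alox12 value was 1.43 without siControl replicate 1 and 2.89 without siControl replicate 2. Near Clec5a, Mgam, an intestinal glucosidase, fell (log2 fold change -1.72, and -2.31 without siHells replicate 1), and Ssbp1 was at -0.06 (adjusted p = 0.411).

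**Figure D4:**
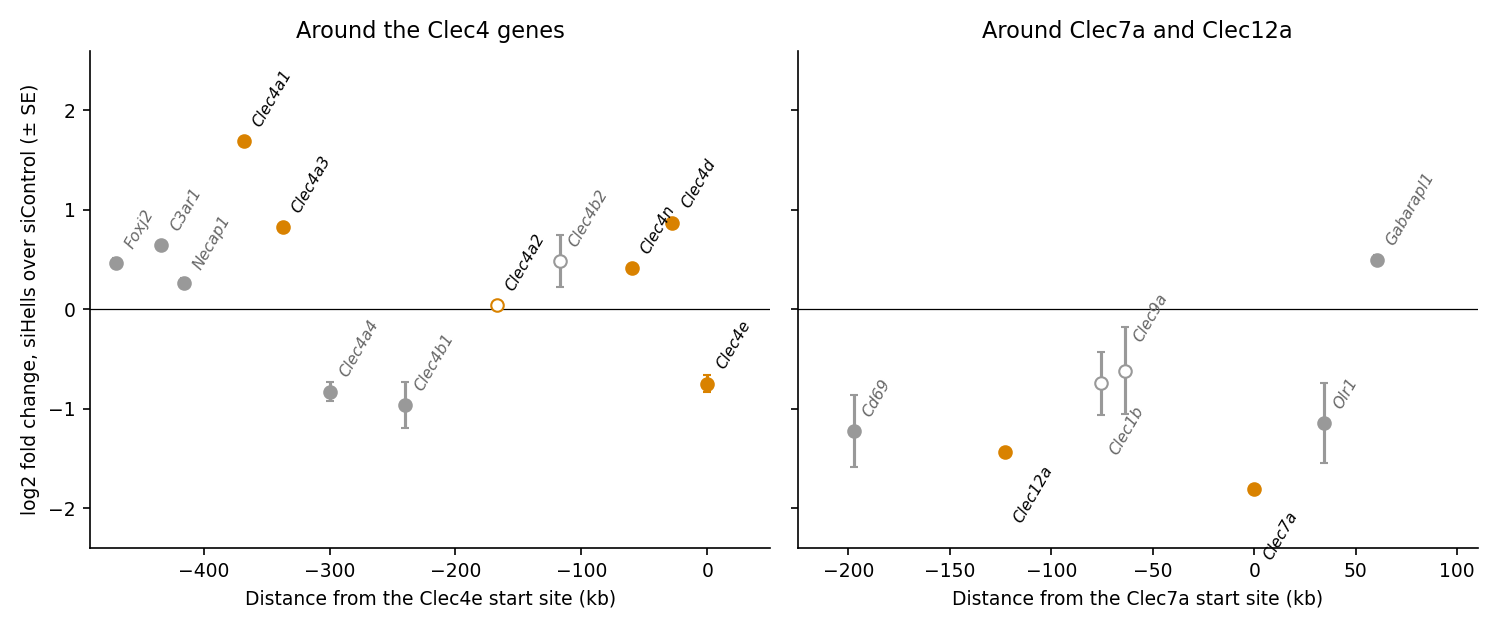
Log2 fold change (± SE) of genes along the Clec4 cluster, by distance in kb from the Clec4e start site, and along the Clec7a cluster, by distance from the Clec7a start site. Orange points are the receptors described here, grey points are their neighbours, and open points did not pass the test. Clec4e lies below 0 beside Clec4d above it.

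Among 48 further listed genes of the C-type lectin superfamily, 27 were in the table and 26 were tested. Of these, 12 rose, 6 fell and 8 were not called, and their median log2 fold change was 0.34. Among those with the smallest p were Cd93, a receptor of endothelial and myeloid cells (2.48-fold higher), the mannose receptor Mrc1 (2.29-fold higher, from 560.4 ± 1.73 to 1282 ± 3.54 CPM), the inhibitory receptor Cd72 (2.89-fold lower, from 131 ± 1.22 to 45.3 ± 3.41 CPM), thrombomodulin Thbd (2.73-fold higher) and the scavenger receptor Colec12 (1.89-fold higher). Of the lower ones, Clec11a, Olr1 and Cd69 lost their call without at least 1 library, and so did Pla2r1 among the higher ones. Clec11a had adjusted p = 0.299 without siControl replicate 1 and 0.128 without siHells replicate 2, and Pla2r1 had 0.0596 without siHells replicate 1.

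Of the 3 adaptors, 2 rose and 1 was not called, with a median log2 fold change of 0.34. Fcer1g stood at 342 and 332 CPM in siControl and at 437 and 416 CPM in siHells, and rose 1.27-fold (log2 fold change 0.34, SE 0.033, adjusted p = 3.11e-07). Hcst, the adaptor Dap10, rose 1.52-fold from a low 3.15 ± 0.074 CPM (adjusted p = 0.00199). Tyrobp, the adaptor Dap12, stood at 605 ± 1.98 CPM in siControl and 629 ± 31.1 CPM in siHells (log2 fold change 0.06, adjusted p = 0.157). It passed the threshold only without siHells replicate 2 (log2 fold change 0.11, adjusted p = 0.00104).

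In the kinase and CARD9 pathway that these receptors feed, 10 of 18 genes rose, 4 fell and 4 were not called, with a median log2 fold change of 0.16. The shares over all genes tested were 29.0% higher and 29.5% lower. Malt1, the paracaspase that assembles with Card9 and Bcl10, fell 3.05-fold, from 130.5 ± 3.06 to 42.7 ± 0.783 CPM (adjusted p = 8.37e-14), while its partner Bcl10 rose 1.64-fold. The Src-family kinase Lyn, which phosphorylates ITAM and ITIM motifs, rose 1.85-fold. The exchange factor Vav1 rose 1.56-fold, and Prkcd, the kinase that activates Card9, fell 1.28-fold. Syk and Card9 were looked at for their central place, after their values were seen. Syk stood at 561 ± 5.57 and 562 ± 9.12 CPM (log2 fold change 0.00, adjusted p = 0.970), and Card9 passed the test with 0.18 (adjusted p = 0.0161). The Card9 call was lost without siControl replicate 1 (adjusted p = 0.151) and without siHells replicate 1 (0.142). Of the other genes that rose, the kinase Fgr lost its call without siControl replicate 1 (0.112) or siHells replicate 1 (0.0589), and Vav2 without siControl replicate 2 (0.134).

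Of the phosphatases that ITIM-bearing receptors recruit, Inpp5d (SHIP-1) rose 1.72-fold, from 274 ± 6.44 to 471 ± 5.02 CPM (adjusted p = 6.90e-12), and Ptpn11 (SHP-2) rose 1.24-fold. Ptpn6 (SHP-1) fell 1.12-fold (adjusted p = 0.000339).

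Of 18 listed cytokines, chemokines and early genes that these receptors can induce, 13 were in the table and tested. Of these 4 rose, 6 fell and 3 were not called, with a median log2 fold change of -0.43. The inflammasome sensor Nlrp3 rose 2.58-fold and the cytokine Il10 3.04-fold, from 1.95 ± 0.237 to 5.91 ± 1.03 CPM. The chemokines Ccl3 and Ccl4 fell 2.72-fold and 2.77-fold, the NF-kB regulator Nfkbid 1.84-fold and the transcription factor Egr2 2.05-fold. The low-count Il1b (27, 26, 17 and 8 counts) passed the threshold in all libraries together (adjusted p = 0.0451) but not without siControl replicate 1 (0.108), siControl replicate 2 (0.130) or siHells replicate 2 (0.303). Its log2 fold change was -1.11, and -1.74 without siHells replicate 1.

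Among 14 myeloid transcription factors, 10 rose, 3 fell and 1 was not called, with a median log2 fold change of 0.59. Irf8, a regulator of monocytes and macrophages, rose 1.94-fold, Klf4, a factor of monocyte differentiation, 3.79-fold and Stat6, which acts downstream of interleukin-4, 1.39-fold. The osteoclast factors Nfatc1 and Mitf fell, with log2 fold changes of -0.95 and -0.59. Spi1, which encodes PU.1, and Cebpb were looked at after their values were seen, because their motifs are among those searched above. Spi1 fell 1.30-fold (adjusted p = 2.89e-07) and Cebpb rose 2.40-fold (adjusted p = 1.28e-07). Of the 10 that rose, Maf lost its call without either siControl library (adjusted p = 0.133 and 0.131) and Tfec without siControl replicate 2 (0.320) or siHells replicate 1 (0.116).

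**Figure D5:**
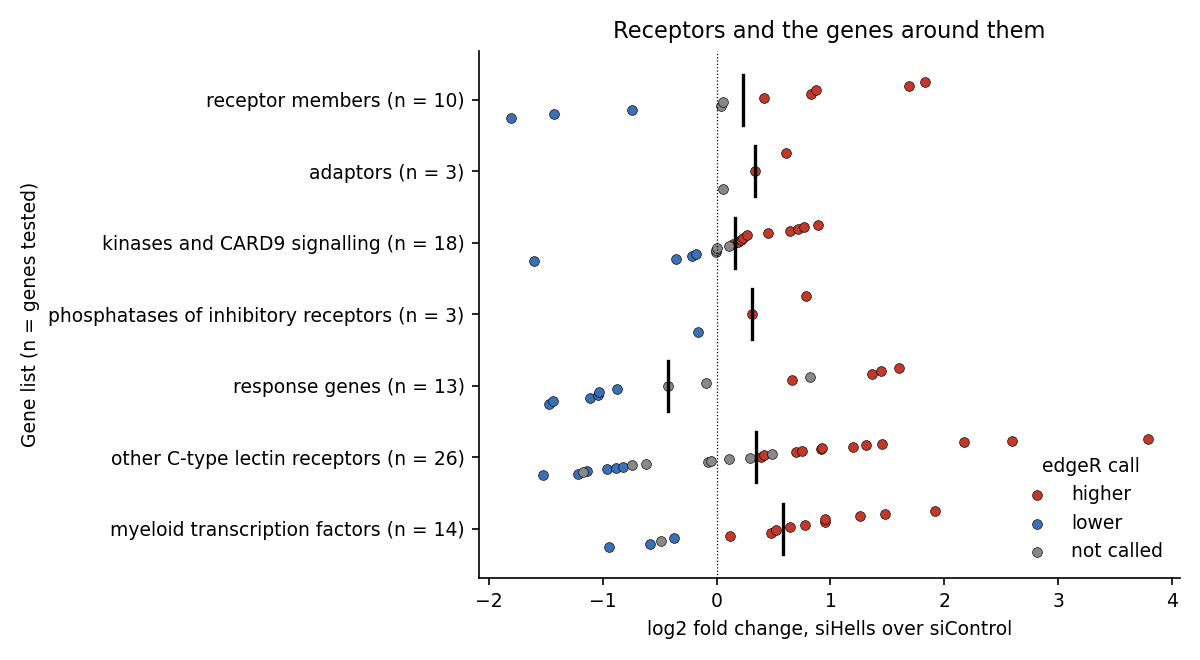
Log2 fold change, siHells over siControl, of the receptors and of 6 lists of related genes. Each point is a gene (red rose, blue fell, grey not called) and each black bar is the median of its list. The receptors spread from -1.81 to 1.83 around a median of 0.24.

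The genes with the pattern most like that of Clec10a and of Clec7a were searched among 11817 genes, by the Euclidean distance between log2 CPM profiles centred on each gene's mean over the 4 libraries. For Clec10a they were Dpep1, a membrane dipeptidase (distance 0.034), Paox, a polyamine oxidase (0.041), and the noncoding Gm19680 (0.056). For Clec7a they were Slc9b2, a sodium-proton exchanger of osteoclasts (0.016), Ank, a membrane protein of pyrophosphate export (0.036), and Mmp14, a membrane metalloproteinase (0.039). With 4 libraries in 2 groups, this measure picks mainly genes with a similar fold change.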

How the data were processed

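RNA-seq counts of 4 libraries, 2 siControl and 2 siHells, were used. Values deposited are raw whole-number counts by gene symbol. The lowest value is 1, so symbols with a 0 in any library were not analysed here. Build mm10, HISAT2 2.1.0, StringTie 2.1.3b, Trimmomatic 0.38, edgeR and FastQC appear in the submitters' processing notes, without roles. Strand setting and annotation: not given in the sources used here. A SMARTer and a TruSeq Stranded kit are both named, per the labels' protocols, so antisense and overlapping genes are uncertain.

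Genes were kept by filterByExpr (minimum count 10, minimum total 15), which left 15651 of 17194. At this depth a count of 10 stands for 0.184 CPM. Library sizes were scaled by TMM. The test was the edgeR 4.0.16 quasi-likelihood test (R 4.3.3, robust), with group as the only term, 2 residual degrees of freedom and Benjamini-Hochberg adjustment over all genes. Log2 fold changes are siHells over siControl, and 95% intervals use the fit's standard error. Within each group the libraries were distinct beyond counting noise (chi-square per gene 3.45 in siControl and 6.26 in siHells). Positions and promoters are from RefSeq GRCm38.p6, and lengths and shared windows from GENCODE M21 (GRCm38); all 10 receptors matched.

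Members and lists were chosen with earlier results of these data known. Lists are described by counts and medians. The counts of every list, markers included, are to be read against the 58.5% of all genes that were called (29.0% higher and 29.5% lower). Named were all members, Hells, all adaptors and phosphatases, up to 6 genes per other list with the smallest p, all tested neighbours within 100 kb, and the 3 genes most like the receptor that rose most and the one that fell most. Some genes this rule picks are not reported here. Alternatives were other scalings (DESeq2 1.42.0 size factors, upper quartile, library totals), filters, tests (DESeq2, limma 3.58.1 voom, edgeR exact and legacy fits), a replicate block, each library left out, a threshold of 0.01 and a test against 1.5-fold. Coding transcript length was added after seeing the data.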

Additional observations from a re-analysis of the deposited data

How the results depend on the processing

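The direction and call of all 10 receptors were the same under each of the 16 alternatives, apart from the test against a 1.5-fold change, and apart from the sign of Clec4a2 and Clec5a, which were not called in any of them. Against 1.5-fold, the adjusted p of Clec4e was 0.0626 (log2 fold change -0.75) and that of Clec4n was 1 (0.41), and 4 receptors were higher and 2 lower. That stricter test called 1261 genes higher and 1096 lower over all genes. It left 0 adaptors higher; 3 kinase and CARD9 genes higher and 1 lower; 6 transcription factors higher and 1 lower; 2 further lectin genes lower; and 1 phosphatase higher and 0 lower. At a threshold of 0.01, 3 further lectin genes were lower. With 1 library left out, the counts over all genes ranged from 3796 to 4442 higher and from 3999 to 4442 lower; the remaining library of a group is then assumed to vary like the others. Libraries with the same replicate number showed little shared deviation (correlation of same-numbered deviations 0.05), which cannot tell whether the samples were paired by design. With a replicate block, 4502 genes were higher and 4586 lower, and 5 receptors were higher and 3 lower, so it changed no receptor call. The near-even balance of higher and lower genes depended on the scaling: upper-quartile scaling gave 4163 higher and 4979 lower, and library totals gave 3773 and 5508. Scaling moved the median of all genes by at most 0.07 on the log2 scale (library totals), and no called gene of the lists or neighbours changed sign under another scaling.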
